A study of Homo sapiens with 6 samples.

Results

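The set described here is made of splice junctions whose 3′ splice site (acceptor) is annotated and whose 5′ splice site (donor) is not. They were taken from 6 junction tables of K562, an established leukaemia cell line of human origin with erythroid features. A junction was kept when it was unannotated in the files, carried a GT-AG, GC-AG or AT-AC motif code (codes 1 to 6), had at least 10 uniquely mapped reads pooled over the 6 libraries, ended at an acceptor that also ends an annotated junction of the same strand, and began at a donor that begins none. The rule found 8159 such junctions among 186160 junctions with at least 10 pooled reads, and they were 25% of the 32676 unannotated ones. All cells carried a knock-in at U2AF1: the control group was 3 libraries with the wild-type knock-in and the other group was 3 libraries with U2AF1 S34F, a serine-to-phenylalanine substitution. No treatment, time point or number of clones is given in the labels, and nothing in them says that the 3 libraries of a group came from separate cultures, so the p-values measure only the spread between these libraries. The libraries were made from poly(A)-selected RNA and held 18074706 to 39279169 uniquely mapped spliced reads, with S34F replicate 3 the deepest. Positions are hg19, 1-based, and give the intron's first and last base. Gene names, splice site sequences and the marker genes of K562 were not analysed here, since no genome or annotation of that build was used.

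During splicing the U1 small nuclear RNA pairs with the 5′ splice site at the start of an intron, and it later gives way to U6. The acceptor at the other end is recognised by the U2AF heterodimer, in which U2AF2 binds the polypyrimidine tract and U2AF1 contacts the AG. A new donor joined to a known acceptor can arise in several ways: the upstream exon may end early or late, a new exon may lie inside the intron, or transcription may start at an unlisted first exon. The S34F substitution lies in a zinc finger of U2AF1 and is known for changes in exon inclusion and acceptor choice, while the donor is not a site that U2AF1 binds.

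The junctions were chosen by their pooled reads over both groups, and the depth behind each was low. The median was 18 pooled reads and the maximum 2681, with 342 junctions at 100 or more and 10 at 1000 or more. At the threshold, 775 junctions had exactly 10 reads and were kept, and 1003 otherwise like them had 9 and were not. A further 74035 candidates had 1 to 9 reads. In all 6 libraries at least 1 read was found for 4057 junctions, or 49.7%, against 88.7% of annotated junctions with at least 10 pooled reads. Another 84 had 0 reads in the wild-type libraries and 19 had 0 reads in the S34F libraries. Taken alone, the wild-type libraries would have given 3148 of the junctions their 10 reads and the S34F libraries 4611, and 2408 reached 10 in each group. The S34F libraries held 80816870 spliced reads in all and the wild-type libraries 69741443, so a pooled threshold favours junctions that were high in S34F.

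The junctions used 7952 different donors and 7070 different acceptors. At 886 acceptors more than 1 new donor was joined, up to 6, and these share the reads of that acceptor and are not independent. Most carried a small part of the acceptor's reads. The pooled share of a junction among all junctions of its acceptor had a median of 3.50%, with quartiles of 1.26% and 9.61%. It was under 1% for 1674 junctions (20.5%) and at least 50% for 456 (5.59%). The new donor was read more often than the most-read annotated donor of the same acceptor in 637 cases (7.81%).

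The donor motif was GT-AG for 8158 of the 8159 junctions, GC-AG for 1 and AT-AC for 0. Among annotated junctions of at least 10 reads GC-AG made up 1.13%. The share was 0.0101% among junctions with an annotated donor and an unannotated acceptor, 0% among unannotated pairings of annotated sites, and 1.69% where neither site was annotated. The filters by which the aligner admitted unannotated junctions are not given in the sources used here, so these shares say nothing about how often GC donors were used. The longest overhang of a read past the junction had a median of 48 nt, and it was under 20 nt for 51 junctions.

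Position was measured from the donor of the most-read annotated junction at the same acceptor. A new donor upstream of it is counted on the exonic side. Close by it can shorten the exon, and farther upstream it can skip the exon or end another one. A donor downstream lies on the intronic side, within the annotated intron. The intronic side held 75.5% of the new donors. By distance, 3482 (42.7%) lay more than 1000 nt into the intron, 1873 lay over 100 and up to 1000 nt into it and 804 lay within 100 nt. On the exonic side 976 lay within 100 nt, 564 at over 100 and up to 1000 nt and 460 farther. The intronic share was 72.0% when the nearest annotated donor of the acceptor was the reference.

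Close to the annotated donor, 1 offset stood out on each side. At 4 nt downstream there were 130 new donors with 4140 pooled reads, and at 4 nt upstream 58 with 3097 pooled reads, while the next most frequent offset, 5 nt downstream, had 30. As background, the consensus of 5′ splice sites begins with GT and holds another GT 4 nt downstream, and an offset of 4 nt shifts the reading frame. Beyond the offset of 4 nt the exonic side held more offsets that keep the frame. From 5 to 100 nt, 355 of 874 exonic offsets (40.6%) were multiples of 3, against 33.3% of the positions in that range, while on the intronic side 217 of 646 (33.6%) were. From 5 to 30 nt the shares were 43.3% on the exonic side and 35.0% on the intronic side, against 34.6% of positions. This is a count of junctions pooled over all libraries, and the reading frame of the transcripts was not analysed here.

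**Figure D1:**
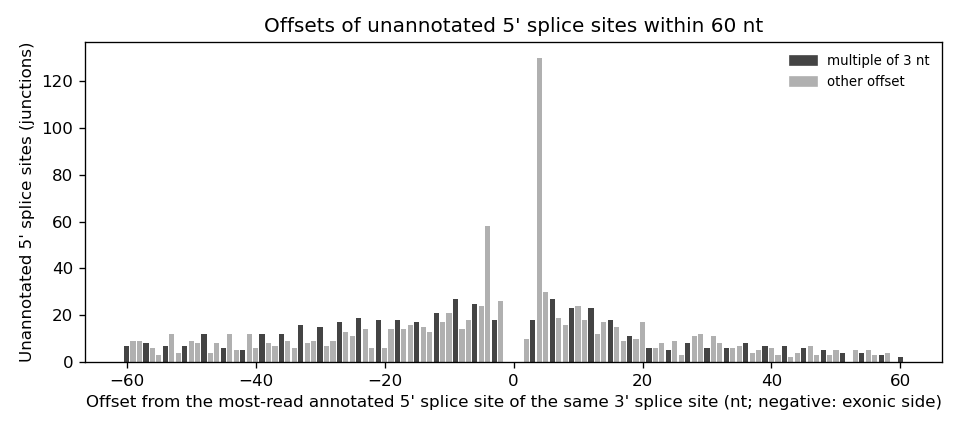
Number of unannotated 5′ splice sites at each offset from the most-read annotated 5′ splice site of the same acceptor, within 60 nt; negative offsets lie on the exonic side, and dark bars are multiples of 3 nt. The bar at 4 nt downstream holds 130 junctions and the bar at 4 nt upstream 58.

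Many of the donors far inside introns had another junction that could enter an exon ending at them. An entering junction was taken as the most-read junction of at least 10 pooled reads whose acceptor lies 10 to 500 nt upstream of the new donor. Of the 3482 donors more than 1000 nt inside the intron, 1817 (52.2%) had one. For 1531 of these the entering acceptor was itself unannotated. For 1349 of the 1531 the entering junction left from the same annotated donor as the most-read annotated junction, so that both junctions would bound an unlisted exon inside an annotated intron. Exons given with a length here and below are such pairings. Reads covering the exon or spanning both junctions were not examined. The candidate exons at the 1531 unannotated acceptors had a median length of 100 nt with quartiles of 68 and 135 nt, and 516 of 1531 had a length that is a multiple of 3. At over 100 and up to 1000 nt inside the intron 1070 of 1873 donors had an entering junction, at an unannotated acceptor in 465 cases. More than 1000 nt upstream, on the exonic side, 228 of 460 had one, at an unannotated acceptor in 117 cases. Within 100 nt of the annotated donor 79.5% of exonic and 79.0% of intronic donors had one, and all but 9 of 776 and 8 of 635 were entered at an annotated acceptor. No entering junction was found for the remaining donors, which may be first exons, exons longer than 500 nt or exons entered by fewer than 10 reads.

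Summed over the set, the new donors carried 1768, 1493 and 1478 RPM (reads scaled to 1000000 unique spliced reads of the library) in wild-type replicates 1 to 3, and 1793, 1609 and 1936 in S34F replicates 1 to 3. The ranges overlap, since wild-type replicate 1 lies above S34F replicate 2. The means were 1580 ± 163 and 1779 ± 164 (SD, n = 3 each; two-sided exact permutation p = 0.2, adjusted p = 0.35 over 7 sums). The smallest p that 3 against 3 libraries allow is 0.1. Without S34F replicate 3 the difference of the means dropped from 199.5 to 121 RPM. As a share of all reads at their acceptors, the junctions took 1.37%, 1.23% and 1.20% in the wild-type libraries and 1.5%, 1.22% and 1.69% in the S34F libraries. The means were 1.27% ± 0.0931 and 1.47% ± 0.236 (SD, n = 3 each; exact permutation p = 0.3, adjusted p = 0.525), and S34F replicate 2 lay inside the wild-type range. Without S34F replicate 3 the difference of the mean shares dropped from 0.202 to 0.0913 percentage points, and without S34F replicate 2 it was 0.326.

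By position, the donors more than 1000 nt inside introns carried the most reads: 695, 559 and 562.01 RPM in wild type against 775, 643 and 794 in S34F. Their means were 606 ± 77.7 and 737 ± 82.3 (SD, n = 3 each; exact permutation p = 0.2, adjusted p = 0.35). Only the donors lying over 100 and up to 1000 nt on the exonic side had groups that did not overlap in RPM, at 135.04, 99.2 and 96.0 in wild type against 135.49, 139.03 and 147.9 in S34F, where wild-type replicate 1 and S34F replicate 1 nearly touch. That difference had p = 0.1 by the exact permutation test, the smallest possible, and an adjusted p of 0.35. The donors more than 1000 nt upstream had the only sums with a lower S34F mean, 156 ± 18.3 against 133 ± 6.06 RPM (SD, n = 3 each; exact permutation p = 0.2). That difference was -22.6 RPM, and a single junction of this class, chr11:59953645-60059697, had means of 23.0 and 4.97 RPM. The class was not summed without it. Within 100 nt the group means were 223 ± 24.7 and 242 ± 27.1 on the exonic side and 157 ± 5.38 and 165 ± 15.2 on the intronic side (exact permutation p = 0.5 and 0.7). No sum passed its test.

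**Figure D2:**
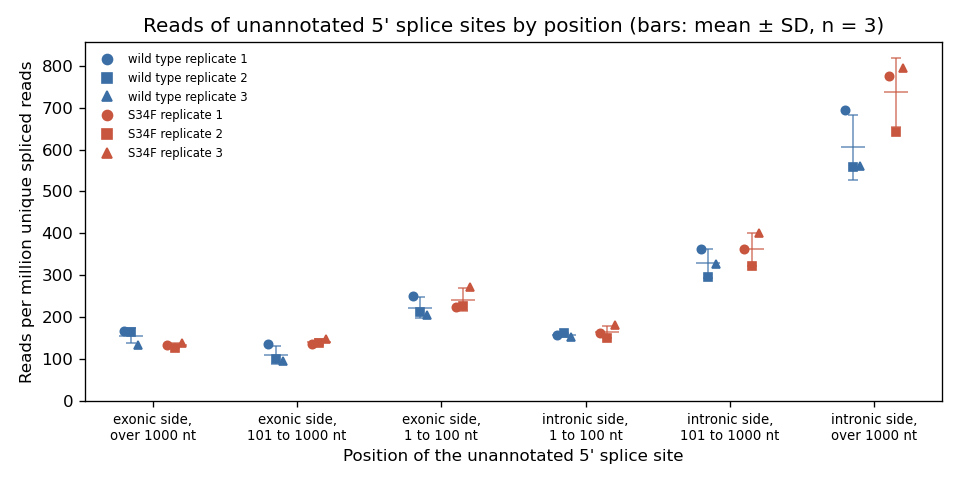
Summed RPM of the unannotated 5′ splice sites in 6 position classes, with 1 symbol per library and bars for the mean and SD (n = 3). Donors more than 1000 nt inside introns lie highest, at 559 to 794 RPM, and the groups overlap in every class except the exonic side at over 100 and up to 1000 nt.

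The number of set members with at least 1 read was highest in S34F replicate 3, the deepest library, and lowest in wild-type replicate 3. It was 7364, 6919 and 6389 in wild type against 7406, 6790 and 7945 in S34F. Thinned to the 18074706 reads of the shallowest library, the expected numbers were 6858, 6363 and 6267 in wild type against 7019, 6790 and 7197 in S34F. After thinning wild-type replicate 1 lay above S34F replicate 2.

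To ask whether single donors were used more or less in S34F cells, the reads of each junction were set against the reads of all other junctions of the same acceptor in edgeR's quasi-likelihood test, which removes the abundance of the transcript. The fit covered 48269 junctions with at least 20 acceptor reads in every library and included 6224 members of the set. The other 1935 did not meet the minimum counts. A call needed a Benjamini-Hochberg adjusted p under 0.05 over all junctions and a difference of at least 10 percentage points in the mean share. In all, 18 members were called, 15 with a higher and 3 with a lower share in S34F. That is 0.289% of the members tested. Among all junctions tested 0.934% were called (0.458% higher and 0.476% lower), and among other unannotated junctions 0.767%. The share of members called lay below both. However, a share under 10% cannot fall by 10 points. The members' pooled shares had an upper quartile of 9.61%, so the criterion left little room for calls in the lower direction. Their median absolute difference was 0.925 points, against 1.43 over all junctions tested. The low share of calls therefore does not say that these donors responded less. A further 42 members had an adjusted p under 0.05 with a smaller difference, which made 60 (45 higher, 15 lower) beside 2.04% of all junctions (1.05% higher, 0.986% lower), and 12 of the 60 had 0 wild-type reads.

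These counts depended on which libraries were present. Without S34F replicate 3, 0 members were called in edgeR's test (467 had an unadjusted p under 0.05), and without wild-type replicate 1, 64 were. The number was 5 without wild-type replicate 2, 10 without wild-type replicate 3, 4 without S34F replicate 1 and 3 without S34F replicate 2. DESeq2 called 9 and limma called 0, with 647 and 1021 members at an unadjusted p under 0.05. Each of the 18 lost its adjusted p under 0.05 in at least 1 of the fits without a library, with a highest value of 0.0639 to 0.229.

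At an unadjusted p under 0.05 the set had 964 members (15.5%), against 17.3% of all junctions tested. In S34F 685 of them were higher and 279 lower, which is 11.0% and 4.48% of the members beside 8.78% and 8.47% of all junctions. So 71.1% of those under 0.05 were higher. Among other unannotated junctions 78.1% of those under 0.05 were higher, and among annotated junctions 41.2%. Each junction is set against the others of its acceptor, so a rise of an unannotated share lowers the annotated shares there. These percentages are therefore not independent of each other. All S34F libraries lay above all wild-type libraries for 812 members (13.0%) and below them for 396 (6.36%), where 11.3% and 11.1% of all junctions tested did so. The median change was 0.25 in log2 odds over the members, 0.36 over other unannotated junctions and -0.08 over annotated ones. The rule favours members that are high in S34F, where more reads were pooled and more members reached 10 reads, so the direction of these counts is given as a description.

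By position, the share of tested members called lay below the 0.934% of all junctions in every class. Within 100 nt of the annotated donor on either side, 0 of 1496 members passed the criteria for a call in edgeR's test, and 97 of them (6.48%) were under 0.05 before adjustment, where 17.3% of all junctions were. Beyond 100 nt 18 of 4728 (0.381%) were called and 18.3% were under 0.05. At the offset of 4 nt downstream 6 of 117 tested donors were under 0.05, and at 4 nt upstream 4 of 44. More than 1000 nt inside the intron 12 of 2538 (0.473%) were called and 20.2% were under 0.05. The classes also differed in how they were read. The median number of pooled acceptor reads was 808 and 824.5 in the classes within 100 nt, on the exonic and intronic side, and 506.5 in the class more than 1000 nt inside the intron. The members' own pooled reads had medians of 18, 17 and 17, and their pooled shares had medians of 2.54%, 2.52% and 4.08%, so the classes within 100 nt started from lower shares. The part of these values in the counts was not tested. Among donors more than 100 nt inside introns, 23.9% of the 1592 whose exon was entered at an unannotated acceptor were under 0.05 and 11 (0.691%) were called. With an entering junction at an annotated acceptor 20.8% of 706 were under 0.05 and 4 (0.567%) were called, and with no entering junction 14.2% of 1752 and 2 (0.114%). No difference between any of these classes was tested.

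**Figure D3:**
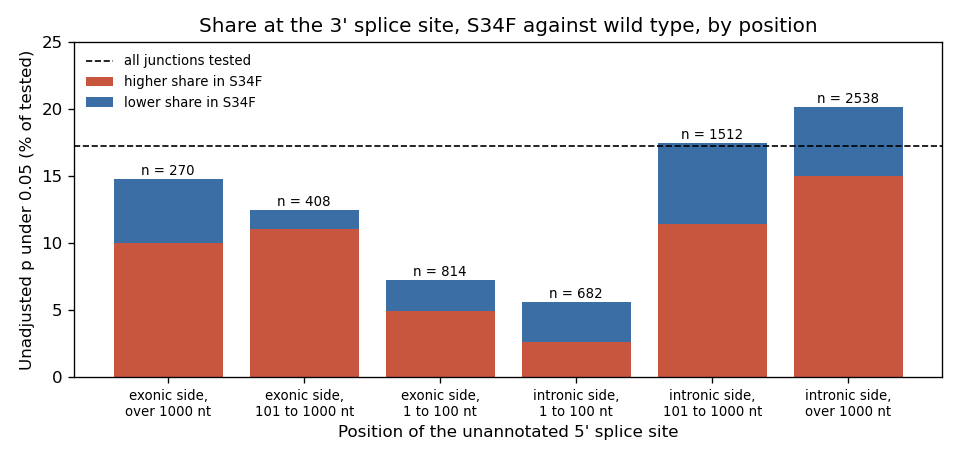
Percentage of tested junctions with an unadjusted p under 0.05 in edgeR's test of the share at the acceptor, by position of the unannotated 5′ splice site, split into higher and lower shares in S34F; n is the number tested and the dashed line is all 48269 junctions tested (17.3%). The classes within 100 nt stand at 7.25% and 5.57%, and the class more than 1000 nt inside introns at 20.2%.

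The 18 called junctions had 18 different acceptors. At all 18 the shares of the groups did not overlap. The criteria for a call favour this, so it adds no support where it is named below. The most-read annotated junction of the acceptor had a negative log2 change in abundance for 13 of the 18, with an adjusted p under 0.05 in edgeR's test for 1. A share depends on both counts, so a higher share need not mean more reads of the donor. Of the 15 rises, 9 had fewer than 10 wild-type reads and reached the minimum of the rule only with their S34F reads. The direction of these 9 is not independent of how they were chosen, and their p-values are given as a description. All 3 falls had at least 10 reads in each group. Of their donors 17 lay more than 100 nt inside an intron, 12 of them more than 1000 nt, and 1 lay on the exonic side. An entering junction was found for 16, at an unannotated acceptor for 11, and the exons it defined were 53 to 440 nt long with a median of 119.5 nt. The length was a multiple of 3 for 6 of the 16. The entering junction had the same direction of change as the donor in 15 of 16 cases. An adjusted p under 0.05 in edgeR's test of abundance was found for 0 of the 16 entering junctions. Entering junctions also needed 10 pooled reads, and some reached them only with S34F reads. Their direction is therefore not independent of how they were chosen, and the agreement is given as a description.

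**Figure D4:**
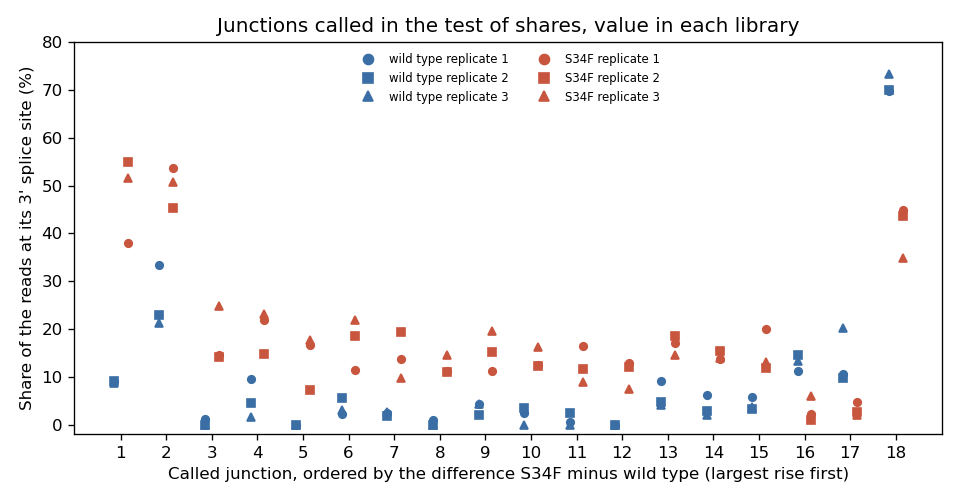
Share of the reads at the acceptor in each library for the 18 called junctions, ordered by the difference of the group means; wild-type libraries are blue and S34F libraries red. The first 15 are higher in S34F, by 39.3 percentage points at most, and the last 3 are lower, of which the last fell by 29.98 points.

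The largest rise was at chr14:50750752-50753886 on the minus strand. Its share was 9.09%, 9.09% and 8.70% in wild-type replicates 1 to 3 and 38.1%, 55.0% and 51.6% in S34F replicates 1 to 3. The S34F libraries lay far above the wild-type ones, although only 20 to 44 acceptor reads stood behind each value. With 9 wild-type reads in all, this junction reached the minimum of the rule only with its S34F reads. The mean rose from 8.96% ± 0.228 to 48.2% ± 8.94 (SD, n = 3 each), a change of 3.20 in log2 odds (SE 0.63, adjusted p = 0.00949 in edgeR's test). The donor ends a 157-nt exon (chr14:50753887-50754043) that was entered at an unannotated acceptor by 1, 0 and 1 reads in wild type against 3, 5 and 3 in S34F. The annotated junction of the acceptor had 35, 26 and 21 reads in wild type against 12, 6 and 14 in S34F. The donor's own abundance did not pass edgeR's test (adjusted p = 0.245).

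At chr16:89608688-89611055 on the plus strand, 9643 nt inside the intron, the share was 33.3%, 23.0% and 21.2% in wild type against 53.7%, 45.3% and 50.8% in S34F. The groups did not overlap, and the mean rose from 25.8% ± 6.54 to 49.9% ± 4.26 (SD, n = 3 each; adjusted p = 0.0476 in edgeR's test). This is the most read of the 15 rises, with 315 pooled reads and 66 to 260 acceptor reads per library, and no entering junction was found.

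A pair of donors had at most 1 read over the wild-type libraries. At chr6:8430391-8432439 on the minus strand 1, 0 and 0 reads were found in wild type against 16, 8 and 40 in S34F, which gave shares of 1.06%, 0% and 0% against 14.5%, 14.04% and 24.8%. The change was 5.25 in log2 odds (SE 0.84, adjusted p = 0.00164 in edgeR's test). Its 68-nt exon (chr6:8432440-8432507) was entered at an unannotated acceptor from the annotated donor by 4, 0 and 0 reads in wild type against 16, 8 and 23 in S34F. Both edges of this unlisted exon had most of their reads in S34F libraries, and only the downstream edge passed its test. With 1 and 4 wild-type reads in all, the donor and its entering junction reached the minimum number of pooled reads only with their S34F reads. Their direction is therefore not independent of how they were chosen, and the p-value is given as a description. At chr1:162470565-162470702 on the plus strand the reads were 1, 0 and 0 against 12, 8 and 28, with shares of 0.862%, 0% and 0% against 11.1%, 11.0% and 14.5% (log2 odds change 5.21, SE 0.84, adjusted p = 0.00164 in edgeR's test). The exon it ends is 125 nt long (chr1:162470440-162470564), and its entering junction from the annotated donor had 3, 0 and 2 reads in wild type against 6, 6 and 28 in S34F. The same limit holds for this donor and its entering junction.

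Another pair had 0 wild-type reads. The donor of chr20:57287347-57287534 on the plus strand had 6, 2 and 16 reads in S34F, shares of 16.7%, 7.14% and 17.8%, and 0 of 105 acceptor reads in wild type, which allows a share of up to 2.86% (adjusted p = 0.0216 in edgeR's test). The donor of chr21:18977316-18979923 on the minus strand had 4 reads in each S34F library, shares of 12.9%, 12.1% and 7.41%, and 0 of 199 in wild type, which allows up to 1.51% (adjusted p = 0.0174). Both junctions entered the set through S34F reads alone, which fixes their direction, so their p-values are given as a description. The limits cover counting error only. The second of these ends a 65-nt exon (chr21:18979924-18979988) entered from the annotated donor by 1, 0 and 0 reads in wild type against 5, 8 and 8 in S34F.

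The shares of other donors deep in introns rose from a few percent. At chr6:36063644-36063763 (plus strand) the shares were 9.59%, 4.55% and 1.504% in wild type against 21.9%, 14.8% and 23.2% in S34F (adjusted p = 0.0292 in edgeR's test), at the end of a 72-nt exon. At chr20:21326526-21327052 (plus strand) they were 2.42%, 1.80% and 2.52% against 13.6%, 19.3% and 9.68% (adjusted p = 0.0133), at the end of a 54-nt exon. This is the only called donor whose entering junction did not change in the same direction (log2 change -0.03). The annotated junction of its acceptor had 161, 163 and 155 reads in wild type against 76, 45 and 166 in S34F. In edgeR's test of abundance that junction was lower (log2 change -1.10, adjusted p = 0.0391), and the donor's own abundance did not pass (adjusted p = 0.226). At chr15:73067439-73072537 (minus strand) they were 2.38%, 3.53% and 0% against 12.5%, 12.2% and 16.1% (adjusted p = 0.0331), at the end of a 126-nt exon. The groups did not overlap at any of these donors. With 5 wild-type reads in all, the chr15 junction reached the minimum of the rule only with its S34F reads, so its p-value is given as a description.

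The donor of chr12:49048844-49053699 (minus strand) lies 449 nt inside its intron and had shares of 0.625%, 2.34% and 0% in wild type against 16.5%, 11.6% and 8.99% in S34F (adjusted p = 0.008 in edgeR's test). It ends a 65-nt exon (chr12:49053700-49053764) entered at an unannotated acceptor from the annotated donor. For chr7:23357333-23358042 (minus strand), 714 nt inside, the shares were 2.22%, 5.56% and 3.08% against 11.5%, 18.6% and 22.0% (adjusted p = 0.036), and it ends a 114-nt exon that was also entered from the annotated donor. For chr16:20800095-20801908 (plus strand) they were 5.81%, 3.20% and 3.65% against 19.9%, 11.8% and 13.1% (adjusted p = 0.0305), with a 75-nt exon. In all 3 the lowest S34F library lay above the highest wild-type one. The chr12 and chr7 junctions had 4 and 8 wild-type reads and reached the minimum of the rule only with their S34F reads. Their p-values are given as a description.

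In 3 of the rises the exon upstream was an annotated one that was entered at its usual acceptor, so the donor lengthens or shortens it. At chr6:76331688-76333615 (plus strand), 346 nt past the annotated donor, the shares were 4.35%, 2.04% and 4.35% in wild type against 11.1%, 15.2% and 19.6% in S34F (adjusted p = 0.0384 in edgeR's test). With 8 wild-type reads in all, this junction reached the minimum of the rule only with its S34F reads, so its p-value is given as a description. The entering junction there is annotated, with 54 to 66 reads per wild-type library and 44 to 121 per S34F library. At chr1:24294214-24297827 (minus strand), 235 nt past the annotated donor, they were 9.13%, 4.69% and 4.14% against 17.0%, 18.6% and 14.6% (adjusted p = 0.0462). The only called donor on the exonic side, chr20:2636189-2636579 (plus strand), lies 204 nt upstream of the annotated donor and had shares of 6.10%, 2.82% and 2.07% against 13.6%, 15.5% and 14.03%. Its mean rose from 3.66% ± 2.14 to 14.4% ± 0.971 (SD, n = 3 each; log2 odds change 2.13, SE 0.44, adjusted p = 0.0114 in edgeR's test), with 241 to 891 acceptor reads per library.

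The largest fall was also the most read of the 18, with 1040 pooled reads. At chr1:171560344-171560725 on the plus strand the share was 69.9%, 70.1% and 73.5% in wild type against 44.9%, 43.7% and 34.9% in S34F, with 190 to 584 acceptor reads per library. The mean fell from 71.2% ± 1.99 to 41.2% ± 5.45 (SD, n = 3 each; log2 odds change -1.83, SE 0.36, adjusted p = 0.00929 in edgeR's test). The donor ends a 53-nt exon (chr1:171560291-171560343) whose entering junction is annotated and had 319, 330 and 214 reads in wild type against 169, 155 and 318 in S34F. The annotated junction that passes over this exon had 68, 90 and 52 reads in wild type against 125, 100 and 336 in S34F.

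The other falls ended at low shares. At chr17:25634946-25636125 (plus strand) the shares were 10.6%, 9.70% and 20.2% in wild type against 4.64%, 2.59% and 2.08% in S34F (adjusted p = 0.0285 in edgeR's test). Its 176-nt exon (chr17:25634770-25634945) was entered by an annotated junction with 234, 206 and 397 reads in wild type against 66, 20 and 64 in S34F, a log2 change of -2.81 in abundance with an adjusted p of 0.0662. At chr7:12384096-12385364 (minus strand) the shares were 11.3%, 14.7% and 13.3% against 2.16%, 0.926% and 5.96% (adjusted p = 0.0421), at the end of a 222-nt exon entered at an unannotated acceptor. Neither had overlapping groups.

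Abundance was tested apart from the share, with edgeR's quasi-likelihood test on the reads of all 186160 junctions. A call needed an adjusted p under 0.05 and a change of at least 2-fold. In these bulk libraries, fewer cells that use a junction and fewer reads per cell cannot be told apart. Of the 8159 members 10 were called, 7 higher and 3 lower in S34F, or 0.123% where 0.306% of all junctions were called (0.151% higher and 0.155% lower). Before adjustment 879 members (10.8%) were under 0.05, and 13.2% of all junctions. Without S34F replicate 3 and without wild-type replicate 2 the number was 0 in edgeR's test (454 and 636 members at an unadjusted p under 0.05), without wild-type replicate 3 or S34F replicate 1 it was 1, and without wild-type replicate 1 it was 16. DESeq2 called 16 and limma 5. Of the 7 higher ones 3 had fewer than 10 wild-type reads, and of the 3 lower ones 1 had fewer than 10 S34F reads. The direction of these is not independent of how they were chosen. The higher ones included 4 of the junctions already described, at chr16:89608688, chr6:8430391, chr1:162470565 and chr20:2636189.

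Of the others, the junction chr19:3981451-3982406 (minus strand) had the smallest adjusted p. It carried 0.708, 0.642 and 1.03 RPM in wild type against 3.84, 2.71 and 3.51 in S34F, with no overlap (log2 change 2.05, SE 0.28, adjusted p = 0.00884 in edgeR's test). Its donor lies 462 nt upstream of the annotated one at a very deep acceptor of 7511 to 21225 reads per library, so its mean share was only 0.213% ± 0.0439 in wild type against 0.686% ± 0.0607 in S34F (SD, n = 3 each). The longest overhang of its reads was 24 nt, where the median of the set was 48 nt.

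At chr11:5291387-5299578 (minus strand) the values were 1.14, 0.842 and 0.877 RPM in wild type against 3.54, 2.88 and 2.95 in S34F (log2 change 1.65, SE 0.26, adjusted p = 0.0207 in edgeR's test). Its share went from 7.42% ± 2.40 to 15.4% ± 1.26 (SD, n = 3 each) and did not pass the test of shares (adjusted p = 0.0979). An 88-nt exon (chr11:5299579-5299666) ends at this donor, and its entering junction at an unannotated acceptor had 11, 15 and 1 reads in wild type against 47, 38 and 62 in S34F. At chr9:140348896-140349197 (minus strand) the junction had 0.0786, 0.0401 and 0.0516 RPM against 0.511, 0.332 and 1.20 (log2 change 3.45, adjusted p = 0.0484). Its mean share differed by 9.98 percentage points, just under the minimum for a call. With 4 wild-type reads in all, it reached the minimum of the rule only with its S34F reads, so its direction is not independent of how it was chosen.

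Among the 3 lower ones, chr5:110835805-110835964 (minus strand) had 0.747, 0.923 and 0.826 RPM in wild type against 0.128, 0.111 and 0.0764 in S34F (log2 change -3.04, SE 0.53, adjusted p = 0.0305 in edgeR's test). The 204-nt exon it ends was entered by 7, 7 and 2 reads in wild type and by 0 in every S34F library. The junction chr20:57601525-57603861 (minus strand) had 0.983, 1.12 and 0.826 RPM against 0.213, 0.221 and 0.229 (log2 change -2.17, adjusted p = 0.0496), and its acceptor was too thinly read, at 6 to 36 reads per library, for the test of shares. The third, chr11:59953645-60064669 (plus strand), had 1.49, 1.60 and 1.39 against 0.128, 0.221 and 0.407 RPM (log2 change -2.52, adjusted p = 0.025), while its share was 6.38% ± 2.95 and 4.47% ± 1.01 (SD, n = 3 each; adjusted p = 0.782). There the annotated junction of the same acceptor had 724, 834 and 245 reads in wild type against 59, 116 and 286 in S34F, a log2 change of -2.24 in abundance that did not pass (adjusted p = 0.201).

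The same donor at chr11:59953645 begins the second most-read junction of the set, chr11:59953645-60059697, with 2094 pooled reads and an intron of 106053 nt. It carried 25.4, 31.8 and 11.6 RPM in wild type against 1.83, 6.03 and 7.05 in S34F, a log2 change of -2.24 that did not pass (SE 0.63, adjusted p = 0.264 in edgeR's test). Its share of the acceptor's reads was 66.2% to 82.4% in every library, against 60 pooled reads of the annotated junction there. At these acceptors (60064669 and 60059697) the RPM of the donor were lower in every S34F library than in any wild-type library, while its shares overlapped between the groups. Another acceptor of the donor in the set is at chr11:60068473, with 70 pooled reads: 22, 25 and 9 in wild type against 3, 3 and 8 in S34F.

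The most-read junction of the set was chr19:29102969-29103345 on the plus strand, 93 nt upstream of the annotated donor, with 2681 pooled reads. It had 738, 622 and 274 reads in wild type against 13, 338 and 696 in S34F. S34F replicate 1 stands far below the others, and so does the annotated junction of that acceptor, with 53 reads there against 668 to 2248 in the other libraries. The share was 22.6%, 22.4% and 25.3% in wild type against 18.3%, 17.4% and 23.0% in S34F, with groups that overlap (adjusted p = 0.701 in edgeR's test).

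**Figure D5:**
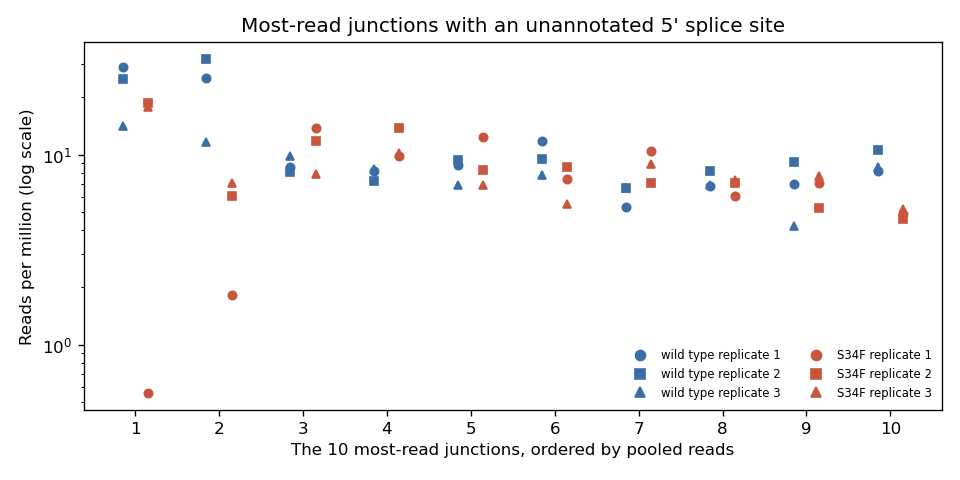
RPM (log axis) of the 10 most-read junctions of the set in each library. The first has 0.554 in S34F replicate 1 against 14.1 to 29.0 in the others, the second is lower in all S34F libraries, and the rest vary less. Among the rest, chr1:171560344-171560725 is also lower in every S34F library than in any wild-type one. The junctions chr6:42981128-42981635 and chr1:2324795-2327222 are higher in every S34F library.

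Of the 10 most-read members, only the fall at chr1:171560344 passed the test of shares. The donor of chr6:42981128-42981635 (minus strand), 112 nt upstream of the annotated one, took 82.0%, 79.1% and 82.3% of its acceptor's reads in wild type against 79.4%, 79.3% and 79.6% in S34F. In wild type the annotated junction of that acceptor had 46, 48 and 35 reads beside 209, 182 and 163 for the new donor. The donor of chr19:49993170-49993488 (plus strand), 10 nt upstream, had 1459 pooled reads but a share of only 1.02% ± 0.127 and 1.32% ± 0.322 (SD, n = 3 each), since its acceptor had 16432 to 27601 reads per library. Inside introns, chr6:26127990-26138281 (plus strand) had a share of 28.7% ± 2.09 in wild type against 25.02% ± 3.71 in S34F, and chr1:2324795-2327222 (plus strand) had 29.8% ± 3.94 and 37.1% ± 5.42. Upstream of the annotated donor, chr7:24801860-24823939 (minus strand) had 74.7% ± 3.07 and 68.2% ± 4.57, and chr10:43892039-43904578 (minus strand) had 38.2% ± 3.07 and 39.3% ± 5.05. Their adjusted p-values in edgeR's test were 0.519 to 0.954.

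At some acceptors the unannotated donor took nearly all reads. For chrX:13353208-13353600 (plus strand), 224 nt upstream of the annotated donor, the share was 95.1%, 95.7% and 93.8% in wild type against 97.5%, 100% and 99.4% in S34F. These groups did not overlap, but the difference did not pass (adjusted p = 0.255 in edgeR's test). For chr2:132059596-132059727 (plus strand) the mean was 95.8% ± 1.17 and 93.9% ± 2.48, and for chr6:99848188-99848419 (minus strand) 90.3% ± 5.50 and 90.9% ± 2.44 (SD, n = 3 each). The donor of chr12:128425281-128467611 (minus strand), 32959 nt upstream, had 92.2%, 95.0% and 91.1% against 83.5%, 81.2% and 85.4%. Its groups did not overlap, but the difference of -9.40 percentage points did not pass (adjusted p = 0.0871 in edgeR's test). The remaining ones of the 8 highest shares lie at chr4:119541766-119542617, chr2:171638900-171641155, chr11:18610543-18624704 and chr22:17131017-17133211, with mean shares of 84.8% to 95.7% in each group and adjusted p-values of 0.775 to 0.968. The chr4 junction also had 81 multi-mapped reads beside 178 unique ones.

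Near the annotated donor, the best-read sites on the intronic side were at 6 and 15 nt. The donor of chr17:34934623-34935674 (plus strand), 6 nt downstream, took 56.9%, 61.1% and 50.3% in wild type against 64.6%, 64.7% and 63.3% in S34F, so it was used more often than the annotated site in every library. The groups did not overlap, and the adjusted p was 0.551 in edgeR's test. The donor of chr1:171553681-171556141 (plus strand), 15 nt downstream, had 30.3% ± 3.79 and 28.9% ± 2.12. At over 100 and up to 1000 nt the best-read sites were chr22:19394798-19395796 (minus strand), 209 nt inside, with 22.0% ± 2.40 and 14.6% ± 1.40, and chr6:42903212-42903311 (plus strand), 875 nt inside, with 22.3% ± 4.13 and 27.3% ± 8.05 (SD, n = 3 each). Their adjusted p-values were 0.316 and 0.664.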

How the data were processed

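Each library came with 1 deposited table of 9 columns in the layout of STAR junction output, and STAR and hg19 are named per the submitters' processing notes. The aligner's version, the annotation and the junction filters are not given in the sources used here. The values used are the deposited raw counts of uniquely mapped reads per junction, not normalized by the authors as far as the whole numbers show, with multi-mapped counts as an alternative. The largest overhang is also as deposited. Tables were joined by position and strand, and a junction missing from a table was set to 0. RPM values are reads scaled to 1000000 unique spliced reads of the library. Shares are of all motif 1 to 6 junctions of an acceptor, and the test of shares also needed 10 own and 10 other pooled reads. Tests used edgeR 4.0.16 (quasi-likelihood, robust, legacy mode; TMM for abundance) with Benjamini-Hochberg adjustment over the whole table, and exact permutation tests over libraries for sums. The scripts were tested on simulated data. Replicates differed by more than sampling noise (chi-square per degree of freedom 6.22 to 23.5 within groups), so each counted as 1 sample. Alternatives were DESeq2, limma, other dispersions, filters, normalizations and read classes, a replicate block and leaving out each library.

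The members and lists were chosen with earlier results of these data known. Junctions named with values are the called ones (12 per direction by share, 8 by abundance), the 10 most read, the 8 of highest share among those with 100 or more pooled reads, and the 2 most read of each position class. The remaining called junctions were added. The gene lists and marker genes planned for naming junctions were not used here, since no gene names of this build were at hand.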

Additional observations from a re-analysis of the deposited data

How the results depend on the processing

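The number of called members in the test of shares was 18. It was 9 with DESeq2, 0 with limma (1021 members at an unadjusted p under 0.05), 11 with no low-count filter, 60 with no minimum difference and 3 with a minimum of 20 percentage points, and it ran from 0 (467 at an unadjusted p under 0.05) to 64 when 1 library was left out. The other alternatives gave 13 to 27. Of the 18 calls, DESeq2 kept 9, limma 0, and the fit without S34F replicate 3 kept 0 of the 16 it could test. The number called in abundance was 10. It was 16 with DESeq2, 5 with limma, 5 with a minimum of 50 reads and 42 with no low-count filter, and 0 to 16 when 1 library was left out. DESeq2 kept all 10 of these calls and limma 0. The cause of these changes was not tested.

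With the replicate number as a replicate block, 17 members were called in shares and 13 in abundance, of which 14 and 9 were among the main calls. Same-numbered libraries did not deviate together (correlations of -0.16, -0.13 and -0.0045 over 69126 junctions), so the numbers were not taken as pairs.

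The summed RPM and shares kept their direction under every alternative, except in the classes within 100 nt when S34F replicate 3 was left out. Leaving out 1 library gave differences of -0.705 to 14.3 RPM on the intronic side there, and of -0.0298 to 0.1002 and -0.00559 to 0.133 percentage points in the shares on the intronic and exonic side. The share of donors on the intronic side was 75.5%, 72.0% by the nearest annotated donor and 71.1% among members of 50 or more pooled reads. Depth is the main limit: 4549 members (55.8%) had only 10 to 19 pooled reads.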
